A study of Bos taurus with 33 samples.

Results

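KCNMA1 encodes the pore-forming alpha subunit of the BK channel, a large-conductance potassium channel that opens on membrane depolarisation and on a rise in intracellular calcium. Its signal was followed in bovine endometrium with all 4 probe sets that the array annotation gives to the gene, of 24016 probe sets and 9155 named genes in all. A probe set is a group of short oligonucleotides on an Affymetrix array whose combined signal stands for 1 transcript sequence. The gene was chosen by the measured log2 differences between interferon-treated and placebo endometrium, where 2 of its probe sets were among the 7 that were lower. Those values are given below as a description, and differences between groups were tested for KCNMA1 only in the other experiment. BK channels let potassium leave the cell and so limit depolarisation and calcium entry. They are best known in smooth muscle, where they damp contraction, and also act in secretory epithelia and vascular cells. In the uterus they have mostly been studied in the myometrium.

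The 33 arrays came from 33 Bavarian Simmental heifers, 1 array each, all synchronised with cloprostenol, and formed 9 groups in 2 experiments. In the biopsy experiment, 3 heifers received a lipid rod that released human interferon alpha (the IFNA group), 3 received the same kind of rod without interferon (placebo) and 3 received only phosphate-buffered saline (PBS), placed on day 14 of the cycle into the horn on the side of the corpus luteum. Each uterus was flushed on day 16, about 6 forceps biopsies were then taken from that horn, and 1 array was made per animal. The pregnancy experiment compared heifers found pregnant after insemination with cyclic heifers given sperm-free supernatant. They were slaughtered on day 12 (5 and 5 animals), day 15 (3 and 3) or day 18 (4 and 4), and intercaruncular endometrium was sampled. The part of the horn sampled differed between days, so day and position cannot be told apart. Animal ages are not given in the labels used here. The animals of a group are biological replicates, and with 3 to 5 arrays in each group their number limits the precision.

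The deposited values are log2 RMA signals, in which 1 unit is a doubling. The 4 blocks of arrays (biopsies, day 12, day 15 and day 18) had median signals of 6.64, 6.86, 6.5 and 7.25 and look separately normalised. Each tested difference between pregnant and cyclic animals was therefore taken within a block. The interaction tests then compare such differences between blocks. The spread was estimated over all arrays of the pregnancy experiment. As a check of the labels, the interferon-induced genes ISG15 and MX2 were higher in the IFNA group than in placebo by 4.91 ± 0.227 and 5.41 ± 0.249 (log2 difference ± SE). They were higher in pregnant than in cyclic animals by 5.24 ± 0.378 and 5.32 ± 0.312 on day 15 and by 4.9 ± 0.327 and 5.57 ± 0.27 on day 18. On day 12 their differences were 0.53 ± 0.292 and 0.42 ± 0.242, with adjusted p-values of 0.805 and 0.823 in limma. As a check of the tissue, the mean signals of the epithelial genes EPCAM and KRT18 lay above those of 99.4% and 94.2% of the probe sets, and those of the stromal genes COL1A1 and VIM above 99.1% and 98.9%. Other members of these lists were lower, with the epithelial keratins KRT8 at 23.4% and KRT7 at 58.4% and the stromal receptor PDGFRB at 47.7%. Markers of other cell types were also high, with the smooth muscle actin ACTA2 at 95.1% and the endothelial EMCN at 94.6%. These ranks therefore do not set epithelium and stroma apart from other cells. The 7 trophoblast markers measured, which would show remnants of the conceptus, differed between pregnant and cyclic animals by no more than 0.27 on day 15 and 0.13 on day 18, and none of them passed.

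The 4 probe sets did not behave alike, and they are named here by the sequence each was designed from. The one that the annotation ties to the RefSeq transcript NM_174680 had the highest mean (9.73 over 33 arrays) and is called the leading probe set. Depending on the array, it lay above 77.6% to 95.2% of all probe sets. The AY033473 set lay between 6.61 and 9.54. The remaining sets were both designed from AY033474 and are told apart by the sense or antisense orientation of the target in their Affymetrix names. The sense set is also marked in its name as reading several transcripts of 1 gene.

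The AY033474 sense set lay between 4.77 and 8.22. The AY033474 antisense set lay between 3.05 and 4.34, above only 6.89% to 18% of the probe sets of its arrays, in the dim range. It is reported throughout, but its values have little room to fall. RefSeq lists 17 KCNMA1 transcripts and 16 proteins in cattle (assembly ARS-UCD2.0), and 1 of the 3 design accessions, NM_174680, is among those transcripts. Which of the transcripts the other probe sets read was not determined.

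In the leading probe set the groups ranked from placebo at the top to day 15 of pregnancy at the bottom. The group means were 10.63 ± 0.17 (SD, n = 3) in placebo, 10.41 ± 0.39 (n = 3) in PBS, 10.17 ± 0.28 (n = 4) in day 18 cyclic, 9.84 ± 0.22 (n = 5) in day 12 pregnant and 9.68 ± 0.39 (n = 5) in day 12 cyclic animals. Below these came 9.55 ± 0.23 (n = 3) in day 15 cyclic, 9.34 ± 0.32 (n = 3) in IFNA, 9.29 ± 0.33 (n = 4) in day 18 pregnant and 8.62 ± 0.01 (n = 3) in day 15 pregnant animals. Every group overlapped with the next in this order except day 18 pregnant and day 15 pregnant, so most neighbouring places are not settled by the spread. The order across blocks also depends on the normalisation. The highest and lowest group means were 2 log2 units apart as deposited and 1.41 apart after quantile normalisation of all 33 arrays together, when placebo stayed highest at 10.42 and day 15 pregnant (9.02) and day 18 pregnant (9.03) were lowest.

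The other probe sets gave a different order across experiments. For the AY033473 set the day 12 animals were highest (9.26 ± 0.37 pregnant and 8.96 ± 0.37 cyclic, SD, n = 5 each) and the IFNA group lowest (6.7 ± 0.08, n = 3). For the AY033474 sense set the 3 biopsy groups were the lowest of all, from 5.74 ± 0.82 in placebo to 4.94 ± 0.23 in IFNA (SD, n = 3 each), whereas for the leading probe set placebo and PBS were the highest groups. The mean of the 9 biopsy arrays minus that of the 24 slaughter arrays was 0.54 for the leading probe set, −0.71 for the AY033473 set, −1.96 for the AY033474 sense set and −0.71 for the AY033474 antisense set. Biopsy method, day, treatment or pregnancy, normalisation block and a sign of RNA quality (described below) all differ between these sets of arrays. They cannot be told apart.

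**Figure D1:**
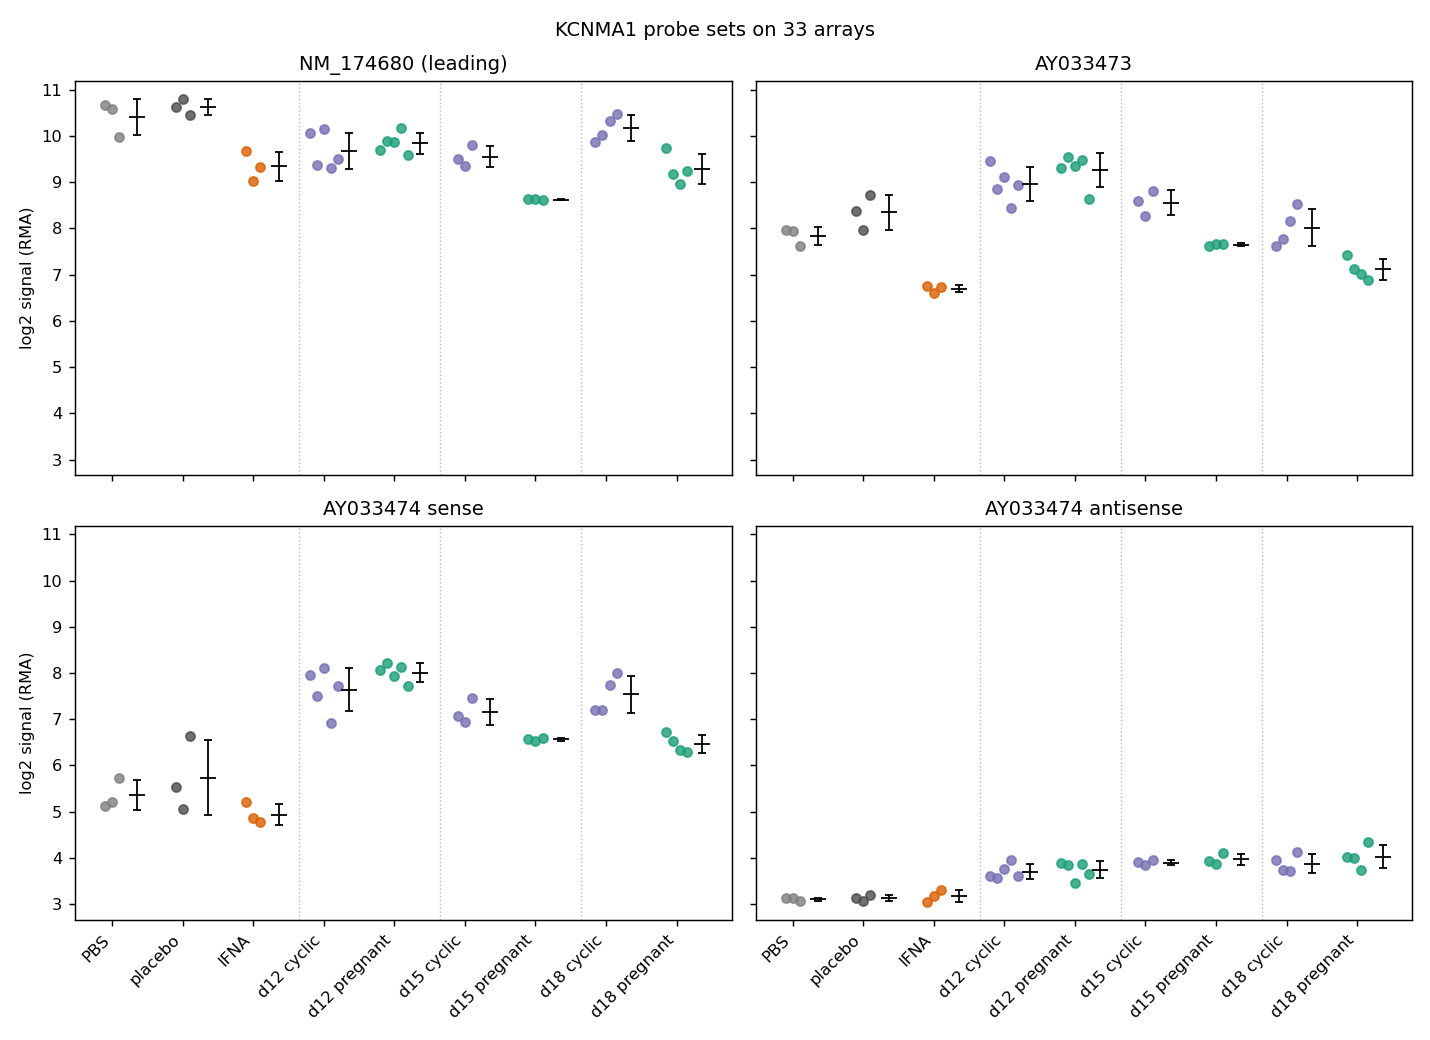
Log2 signal (RMA) of the 4 KCNMA1 probe sets on each of the 33 arrays, by group; each point is 1 heifer, black bars give the mean ± SD of the group, and dotted lines part the 4 blocks of arrays. IFNA lies below placebo and PBS in the first 2 probe sets, pregnant animals lie below cyclic animals on days 15 and 18 in the first 3, and the AY033474 antisense set stays between 3.05 and 4.34.

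In the biopsies, KCNMA1 was lower with interferon than in either control group in 2 of the 4 probe sets. On the leading probe set the 3 IFNA animals read 9.67, 9.03 and 9.32, the placebo animals 10.63, 10.79 and 10.46, and the PBS animals 10.68, 10.59 and 9.97. All 3 IFNA values lay below all 6 control values. On the AY033473 set the IFNA animals read 6.76, 6.61 and 6.74, the placebo animals 8.37, 7.97 and 8.72, and the PBS animals 7.96, 7.95 and 7.62. The groups were again apart, and the IFNA animals lay close together. Over the whole array the IFNA values lay wholly below placebo in 5.14% of the probe sets and wholly below PBS in 8.47%.

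The IFNA minus placebo difference, which chose the gene, was −1.29 ± 0.22 (log2 ± SE) on the leading probe set, 41% of the placebo level. On the AY033473 set it was −1.65 ± 0.185, or 31.9% of placebo. These were 2 of 7 probe sets called lower in that comparison, 0.0291% of all tested, and 0.837% were called higher. The last probe set inside that threshold has no gene name and was at −1.5 ± 0.26, and the first outside was CSNK1A1, a casein kinase, at −0.46 ± 0.0852. The IFNA minus PBS differences share the IFNA arrays with that comparison and were −1.07 ± 0.22 and −1.14 ± 0.185. In that comparison 0.15% of all probe sets were called lower, among them the AY033473 set and not the leading probe set. Placebo minus PBS gave 0.21 ± 0.22 and 0.51 ± 0.185. No probe set of the array passed limma's adjusted threshold in placebo minus PBS (0%), and 2.71% had an unadjusted p below 0.05.

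The other probe sets differed from these. On the AY033474 sense set the IFNA animals read 5.20, 4.86 and 4.77, the placebo animals 5.53, 5.05 and 6.64, and the PBS animals 5.13, 5.21 and 5.74. The groups overlapped, and placebo animal 3 stood above all other biopsies. IFNA minus placebo was −0.8 ± 0.362 and IFNA minus PBS −0.42 ± 0.362, with 95% intervals of −1.62 to 0.03 and −1.24 to 0.41. The AY033474 antisense set differed by 0.05 ± 0.0972 and 0.06 ± 0.0972.

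The biopsy arrays also differed in a sign of RNA quality. On these arrays the signal of the 3′ control probe set of GAPDH minus that of its 5′ control probe set averaged 2.54 ± 0.93 (SD, n = 9, log2), from 1.03 in placebo animal 3 to 3.87 in placebo animal 2, against 0.15 ± 0.26 (SD, n = 24) in the slaughter arrays. The IFNA, PBS and placebo means of this measure were 2.38 ± 0.67, 2.67 ± 0.94 and 2.58 ± 1.44 (SD, n = 3 each). The signal of the AY033474 sense set was lower where the GAPDH difference was larger. Over the 9 biopsies Pearson's r was −0.71 (two-sided exact permutation p = 0.0243, 0.097 after Benjamini-Hochberg adjustment over 4 probe sets) and Spearman's rho −0.58 (exact p = 0.108, adjusted 0.216). Without the 2 arrays farthest from the median GAPDH difference r was −0.09, so the pooled relation rests on those arrays.

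Within the treatment groups the relation was closer. With each group's mean subtracted, r for the AY033474 sense set was −0.97, a calculation chosen after the values were seen and given as a description. For the leading probe set the pooled r was 0.30 (exact p = 0.426) and rho 0.58 (exact p = 0.108), and r within groups was 0.47. For the AY033473 set the pooled r was −0.02 (exact p = 0.958) and r within groups −0.46. Without the 2 arrays farthest from the median GAPDH difference, r was 0.61 for the leading probe set and 0.62 for the AY033473 set. The pooled values of these probe sets thus also depend on those arrays. With the GAPDH difference as a covariate, IFNA minus placebo was −1.26 on the leading probe set, −1.67 on the AY033473 set and −0.89 on the AY033474 sense set. These are values of the contrast that chose the gene and are given without a test.

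**Figure D2:**
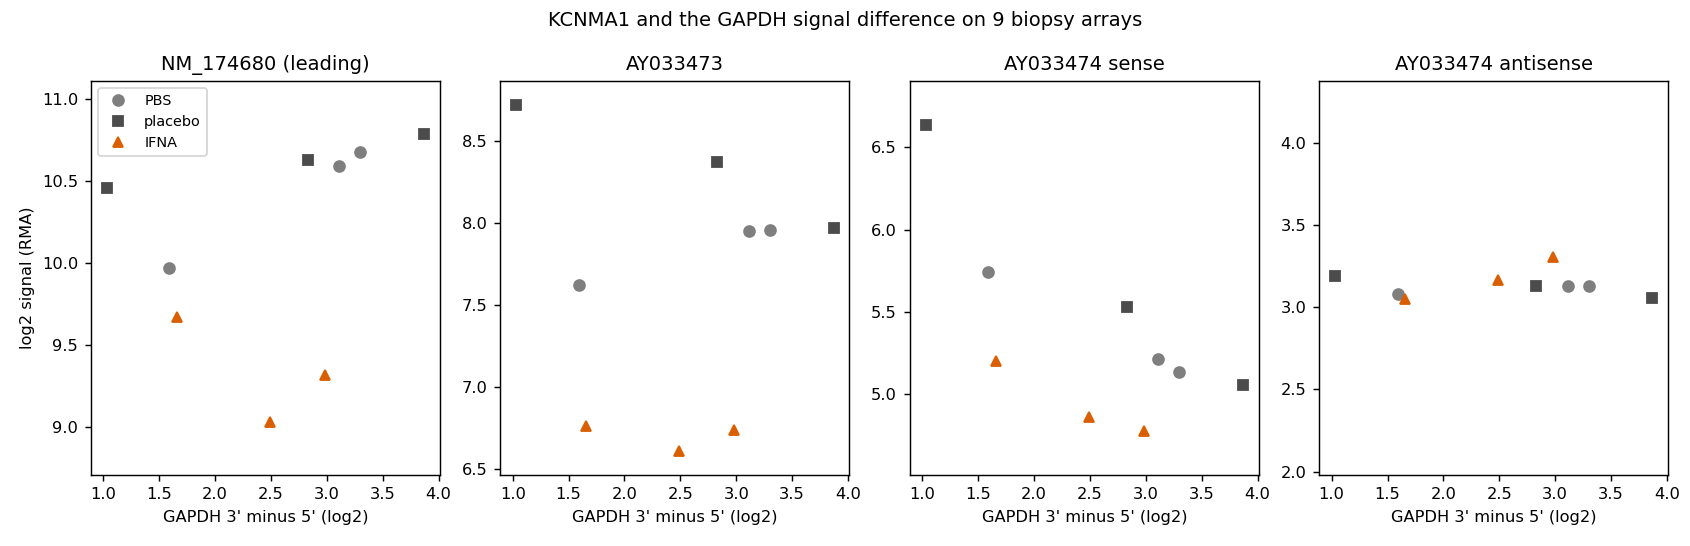
Log2 signal of each KCNMA1 probe set (vertical, 2.4 log2 units in each panel) against the GAPDH 3′ minus 5′ signal difference (horizontal, log2) on the 9 biopsy arrays, with 1 symbol per treatment group. The AY033474 sense set falls with a larger GAPDH difference within each group (r −0.97 with group means subtracted), and the IFNA animals, with GAPDH differences of 1.66 to 2.98, are the lowest 3 on the first 2 probe sets.

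The values of the pregnancy experiment were not used to choose the gene but were known when it was chosen. On day 12 no KCNMA1 probe set passed the test, and the brighter ones read somewhat higher in pregnant than in cyclic animals. On days 15 and 18 these brighter probe sets read lower in pregnant animals. Each probe set that passed the test was at 47.8% to 54.2% of the cyclic signal. In bulk tissue a smaller number of expressing cells and less RNA in each cell cannot be told apart. Values are limma log2 differences ± SE with p-values adjusted over all 24016 probe sets.

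On day 12 the leading probe set read 10.06, 9.38, 10.15, 9.31 and 9.51 in the cyclic animals and 9.70, 9.89, 9.86, 10.18 and 9.59 in the pregnant animals. The groups overlapped. Pregnant minus cyclic was 0.16 ± 0.17 (adjusted p = 0.933, 95% interval −0.19 to 0.51). The other differences were 0.30 ± 0.19 (adjusted p = 0.846) on the AY033473 set, 0.37 ± 0.185 (adjusted p = 0.769) on the AY033474 sense set and 0.05 ± 0.11 (adjusted p = 0.979) on the AY033474 antisense set. None of the 4 passed, and 1 probe set of the whole array did (0.00416%). The unadjusted p was 0.056 for the AY033474 sense set and above 0.1 for the other three.

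On day 15 the leading probe set read 9.51, 9.35 and 9.80 in the cyclic animals and 8.63, 8.63 and 8.61 in the pregnant animals. The pregnant animals lay within 0.02 of each other and below every cyclic animal. The difference was −0.93 ± 0.219 (adjusted p = 0.0146), or 52.5% of the cyclic signal, lower in 3 of 3 pregnant animals. The AY033473 set read 8.59, 8.27 and 8.82 in cyclic and 7.61, 7.66 and 7.67 in pregnant animals, again without overlap, a difference of −0.91 ± 0.245 (adjusted p = 0.0313). The AY033474 sense set read 7.06, 6.93 and 7.46 against 6.58, 6.54 and 6.60. Its groups did not overlap either, but the difference of −0.58 ± 0.239 did not pass (adjusted p = 0.182). The AY033474 antisense set differed by 0.07 ± 0.142 (adjusted p = 0.88). So 2 of the 4 probe sets were called lower on day 15, where 2.32% of all probe sets were, and 3 of the 4 had non-overlapping lower values, as did 12.7% of all probe sets. After quantile normalisation of all 33 arrays the AY033473 set missed the threshold (adjusted p = 0.0501). With a block for replicate numbers neither call held, and the labels do not state whether these numbers pair the animals.

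The day 15 calls were sensitive to single arrays. The leading probe set kept its direction in all 6 fits with 1 array left out (−1.03 to −0.81) and its call in 3 of them, with adjusted p from 0.0254 to 0.0745. It missed the threshold without cyclic animal 3, without pregnant animal 1 and without pregnant animal 3. The AY033473 set ranged from −1.06 to −0.78 (adjusted p 0.0392 to 0.129) and passed only without cyclic animal 2. The AY033474 sense set ranged from −0.69 to −0.42 and never passed. Leaving out an array leaves 2 animals in a group, and the spread was taken from all slaughter arrays.

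On day 18 the leading probe set read 9.86, 10.02, 10.32 and 10.47 in the cyclic animals and 9.75, 9.17, 8.97 and 9.25 in the pregnant animals. The closest pair, pregnant animal 1 and cyclic animal 1, was 0.11 apart, and the groups did not overlap. The difference was −0.88 ± 0.19 (adjusted p = 0.00214), or 54.2% of the cyclic signal. The AY033473 set read 7.62, 7.77, 8.17 and 8.52 in cyclic and 7.42, 7.13, 7.02 and 6.89 in pregnant animals, a difference of −0.90 ± 0.213 (adjusted p = 0.00433). Pregnant animal 1 was the highest of its group here as well. The AY033474 sense set read 7.20, 7.20, 7.75 and 7.99 in cyclic and 6.72, 6.53, 6.33 and 6.30 in pregnant animals, a difference of −1.07 ± 0.207 (adjusted p = 0.000876), or 47.8% of the cyclic signal.

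Thus 3 of the 4 KCNMA1 probe sets passed on day 18, each lower in 4 of 4 pregnant animals than in any cyclic animal. Over the whole array 10.2% of the probe sets were called lower on that day and 11.8% had non-overlapping lower values. The AY033474 antisense set differed by 0.14 ± 0.123 (adjusted p = 0.478). All 3 calls held in each of the 8 fits with 1 array left out. The differences then ranged from −1.04 to −0.78, from −1.04 to −0.74 and from −1.18 to −0.91, with adjusted p no higher than 0.0113, 0.0222 and 0.00509.

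**Figure D3:**
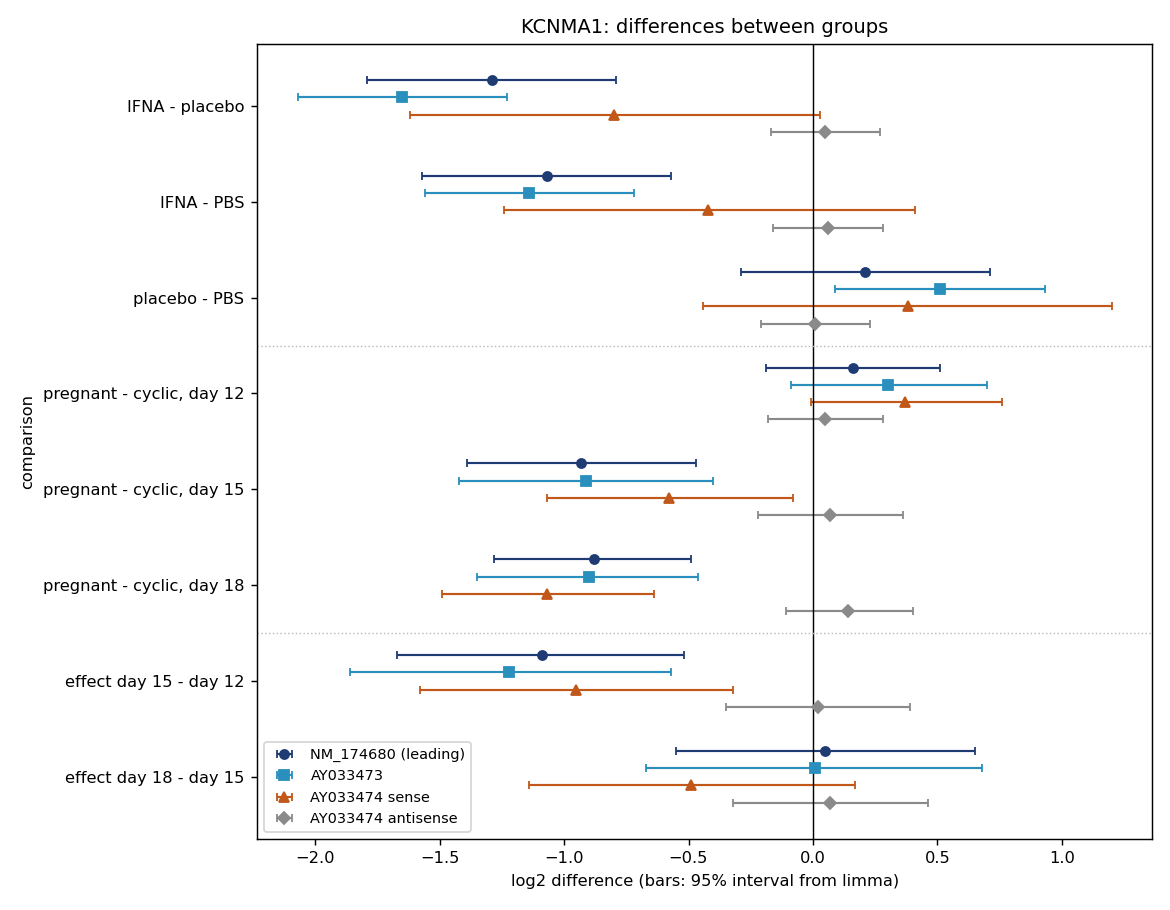
Log2 differences between groups for the 4 KCNMA1 probe sets, with 95% intervals from limma; the upper part shows the biopsy comparisons, the middle part pregnant minus cyclic by day, and the lower part the change of that difference between days. The 3 brighter probe sets lie between 0.16 and 0.37 on day 12 and between −0.58 and −1.07 on days 15 and 18, and the AY033474 antisense set lies near 0 in every comparison.

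The pregnancy effect changed between day 12 and day 15 and not detectably between day 15 and day 18. The interaction term for day 15 against day 12 was −1.09 ± 0.277 (adjusted p = 0.0416) on the leading probe set and −1.22 ± 0.31 (adjusted p = 0.0428) on the AY033473 set. These are 2 of 4 probe sets where 0.62% of all probe sets were called in that direction. It was −0.95 ± 0.302 (adjusted p = 0.112) on the AY033474 sense set and 0.02 ± 0.179 (adjusted p = 0.979) on the AY033474 antisense set. The terms of the leading and AY033473 sets join day 15 differences of −0.93 and −0.91 with positive day 12 differences of 0.16 and 0.30, which enlarge them.

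Both calls lay near the threshold. With 1 of the 16 arrays left out the leading probe set ranged from −1.21 to −0.97 (adjusted p 0.0179 to 0.115) and passed only without day 12 cyclic animal 1 or 3 or without day 12 pregnant animal 1 or 5. The AY033473 set ranged from −1.37 to −1.09 (adjusted p 0.0104 to 0.115) and passed only without day 12 cyclic animal 1, day 12 pregnant animal 5 or day 15 cyclic animal 2. Neither passed after quantile normalisation of all 33 arrays (adjusted p = 0.0618 and 0.0604) or with a block for replicate numbers.

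For day 18 against day 15 the interaction was 0.05 ± 0.29 (95% interval −0.55 to 0.65) on the leading probe set, 0.01 ± 0.325 (−0.67 to 0.68) on the AY033473 set and −0.49 ± 0.316 (−1.14 to 0.17) on the AY033474 sense set. None passed (adjusted p 0.984, 0.998 and 0.684), and 0.208% of all probe sets did in either direction. These intervals are wide enough to hold a change of more than 0.5 either way for the first 2 probe sets.

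**Figure D4:**
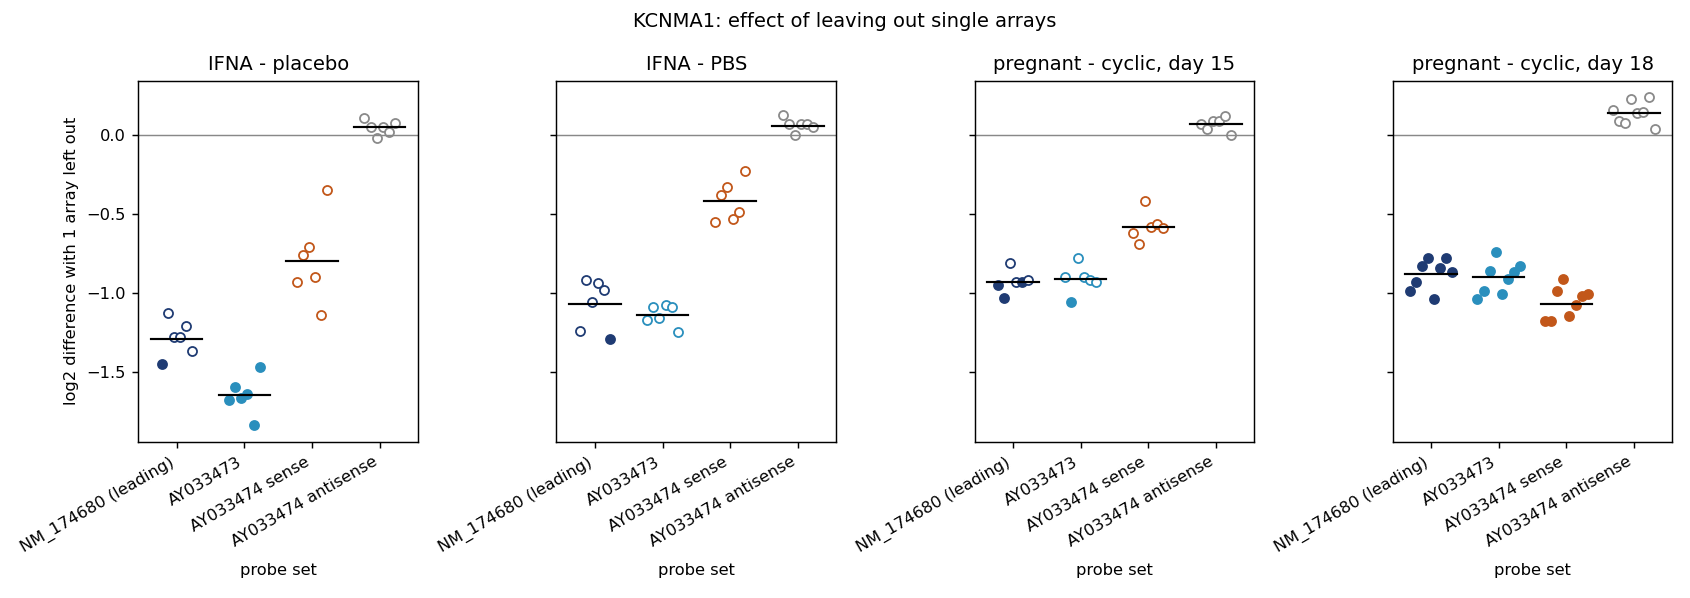
Log2 difference of each KCNMA1 probe set with 1 array of the comparison left out at a time; each point is 1 such fit, filled where limma's adjusted p was below 0.05, and black lines give the value with all arrays. All day 18 points of the first 3 probe sets are filled, the day 15 points are filled in 3 of 6 and 1 of 6 fits for the first 2, and the smallest IFNA minus placebo effect of the AY033474 sense set (−0.35) is the fit without placebo animal 3.

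Leaving out single biopsy arrays moved the probe sets by different amounts. IFNA minus placebo ranged from −1.45 to −1.13 on the leading probe set and from −1.84 to −1.47 on the AY033473 set. The leading probe set stayed inside the adjusted threshold that chose the gene in 1 of these 6 fits, the one without IFNA animal 1, and the AY033473 set in all 6. On the AY033474 sense set it ranged from −1.14 without placebo animal 2 to −0.35 without placebo animal 3. These animals have the highest and the lowest GAPDH difference of the biopsies. IFNA minus PBS ranged from −1.29 to −0.92, from −1.25 to −1.08 and from −0.55 to −0.23. In that comparison the leading probe set was inside the threshold only without PBS animal 3, and the AY033473 set in none of the 6 fits.

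The 3 brighter probe sets varied together among the slaughter animals and less so among the biopsies. After subtraction of the mean of each block, the leading probe set correlated with the AY033473 set at r = 0.93 over the 24 slaughter arrays and 0.89 over the 9 biopsies. With the AY033474 sense set it correlated at 0.90 over the slaughter arrays and 0.38 over the biopsies. These values include the differences between groups. With group means subtracted, r over 33 arrays was 0.67 between the first 2, 0.36 between the leading probe set and the AY033474 sense set, and 0.76 between the AY033473 set and the AY033474 sense set. All probe sets of an array share its RNA and scaling, and these correlations are descriptions.

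BK channels are tuned by accessory subunits. The beta subunits change calcium sensitivity and gating, and the leucine-rich gamma subunits shift activation to lower voltages. Of 8 such genes, KCNMB1, the beta subunit of smooth muscle, and KCNMB4, best known in neurons, had named probe sets. Neither passed the test in any of the 8 comparisons. KCNMB1 differed between pregnant and cyclic animals by −0.29 ± 0.176 on day 12, 0.07 ± 0.227 on day 15 and −0.17 ± 0.196 on day 18, with adjusted p-values of 0.838, 0.929 and 0.635.

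The group means of KCNMB1 ran from 5.26 ± 0.25 (SD, n = 3) in day 15 cyclic animals to 6.45 ± 0.59 (n = 3) in PBS animals. KCNMB4, read by its brighter probe set, differed by −0.20 ± 0.149, −0.17 ± 0.192 and −0.03 ± 0.166 on days 12, 15 and 18 (adjusted p = 0.889, 0.739 and 0.942). In IFNA minus placebo the values were −0.3 ± 0.257 for KCNMB1 and −0.11 ± 0.275 for KCNMB4. The second KCNMB4 probe set gave −0.54 ± 0.303 there and did not pass either (adjusted p = 0.711).

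Other potassium channels did not follow KCNMA1 as a group. Of 56 listed channel and channel-subunit genes 21 were measured, and their median difference was 0.08 on day 15 and −0.05 on day 18, beside −0.01 and −0.03 over all probe sets. Their summed signal, on a log2 scale, was 10.62 to 10.64 in pregnant and 10.23 to 10.45 in cyclic animals on day 15, and overlapped on day 18. On day 15, 1 rose and none fell, where 2.75% of all probe sets rose. This was KCNE4, an accessory subunit that inhibits voltage-gated channels, at 1.46 ± 0.271 (adjusted p = 0.00204), past the threshold in all 6 fits with 1 array left out but not when only the day 15 arrays were fitted (adjusted p = 0.087). Its change from day 12 to day 15 was 1.67 ± 0.343 (adjusted p = 0.00936), opposite in sign to that of KCNMA1 and among the 1.37% of probe sets called in that direction.

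On day 18, 2 of the 21 fell and none rose, where 10.2% of all probe sets fell and 8.84% rose. KCNQ1, a voltage-gated channel of epithelia and heart, changed by −0.49 ± 0.133 (adjusted p = 0.0131) and its second probe set by 0.05 ± 0.0988. The KCNQ1 call was lost without cyclic animal 2 or pregnant animal 2. KCND1, a fast-inactivating channel, changed by −0.26 ± 0.0859 (adjusted p = 0.0356), a call lost without cyclic animal 4 or pregnant animal 1, 2 or 3. In IFNA minus placebo none of the 21 passed. In IFNA minus PBS, ABCC8, the sulfonylurea receptor of ATP-sensitive channels, was lower by −0.95 and the background channel KCNK17 by −0.85. The ABCC8 call held in 1 of 6 fits with an array left out and the KCNK17 call in none.

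The channel opens on calcium and is phosphorylated by cyclic GMP-dependent kinase, so 41 genes of calcium supply and cyclic GMP signalling were listed, of which 28 were measured. On day 15 none passed, and their median was −0.08. On day 18, 4 fell and none rose, where 10.2% of all probe sets fell and 8.84% rose, so the count is near the share over the array. Their median was −0.09 beside −0.03 over all probe sets. These were ATP2A2, the calcium pump of the endoplasmic reticulum, at −0.37 (adjusted p = 0.00775), the inositol trisphosphate receptor ITPR2 at −0.34 (0.0487), and the calcium channel beta subunits CACNB1 at −0.30 (0.0143) and CACNB3 at −0.29 (0.0405).

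Of these 4, only the ATP2A2 call held in every fit with 1 of the 8 arrays left out. CACNB1 held in 6 (lost without cyclic animal 2 or pregnant animal 2), CACNB3 in 3 and ITPR2 in 2. The probe sets of ATP2A2 were split: a second one also fell (−0.36, adjusted p = 0.00186) and another read 0.14 ± 0.0867. In IFNA minus PBS the caveolin CAV2 changed by −0.50, a call that no fit with 1 array left out kept, and in IFNA minus placebo none of the 28 passed. The summed signal of the 28 genes, on a log2 scale, was lower in pregnant than in cyclic animals without overlap. It ran from 12.68 to 12.89 against 12.92 to 13.13 on day 15, and from 13.36 to 13.49 against 13.55 to 13.62 on day 18. Over all probe sets 12.7% and 11.8% had non-overlapping lower values on these days. The part of this sum in the KCNMA1 difference was not tested.

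KCNMA1 is a prominent channel of smooth muscle, and of 22 listed genes of smooth muscle contraction 15 were measured. None passed on day 15, and on day 18 only CSRP1, a cytoskeletal LIM protein, did (−0.37, adjusted p = 0.0377, held in 2 of 8 fits with 1 array left out). Over all probe sets 2.32% fell on day 15 and 10.2% on day 18. The median differences of the 15 were −0.16 on day 15 and −0.25 on day 18, and −0.35 in IFNA minus placebo, where none passed, beside −0.01, −0.03 and −0.02 over all probe sets. The summed signal of the 15 genes, on a log2 scale, ran from 12.08 to 12.71 in cyclic and 12.15 to 12.27 in pregnant animals on day 15, and from 12.95 to 13.69 and 12.98 to 13.08 on day 18. It overlapped between pregnant and cyclic animals on both days. Its part in the KCNMA1 difference was not tested.

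Among 28 genes of epithelial ion and water transport, 16 were measured, with medians of 0.01 on day 15 and 0.06 on day 18. On day 15 the sodium-potassium-chloride cotransporter SLC12A2 rose by 1.18 (adjusted p = 0.00823) and the bicarbonate transporter SLC4A7 changed by −0.43 (adjusted p = 0.0172, lost without cyclic animal 2 or pregnant animal 1). On day 18 SLC12A2 rose by 0.97 (adjusted p = 0.00334) and the sodium channel subunit SCNN1A changed by −1.18 (adjusted p = 0.00161). Its partner subunit SCNN1G rose by 0.36 (adjusted p = 0.0193), a call lost without cyclic animal 1 or 3 or pregnant animal 3, and a second SCNN1G probe set read 0.21 ± 0.13. A second probe set of SLC12A2 rose by 1.28 on day 15 and 0.96 on day 18 and passed on both days. Over all probe sets 2.75% rose and 2.32% fell on day 15, and 8.84% and 10.2% on day 18. None of the 16 passed in IFNA minus placebo or IFNA minus PBS.

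Markers of other cell types moved in the same comparisons as KCNMA1. Of 13 endothelial markers, 2 fell on day 15 and 6 on day 18, with medians of −0.47 and −0.34, and none rose. Over all probe sets 2.32% and 10.2% fell on these days. PECAM1, an adhesion molecule of endothelial junctions, changed by −0.69 and −0.83 on the 2 days, and the receptor kinase TIE1 by −0.69 and −0.92. The day 15 call of PECAM1 held in 2 of 6 fits with 1 array left out and that of TIE1 in 1, and both day 18 calls held in all 8. The summed endothelial signal ran from 11.78 to 12.16 in cyclic and 11.58 to 11.91 in pregnant animals on day 15, and from 12.18 to 12.73 and 11.96 to 12.27 on day 18, with overlap on both days. In the biopsies it was 12.07 to 12.58 in IFNA, 12.48 to 12.87 in placebo and 12.98 to 13.15 in PBS animals, with none of the 13 called in IFNA minus placebo and 2 called lower in IFNA minus PBS. The smooth muscle and pericyte sum was 12 to 12.45 in IFNA, 12.55 to 12.98 in placebo and 12.29 to 13.1 in PBS animals, lower in IFNA than in placebo without overlap. The stromal sum was 15.06 to 15.54, 15.47 to 15.72 and 15.58 to 15.85 in the same order, lower in IFNA than in PBS without overlap. The neutrophil sum was 9.16 to 9.31, 9.26 to 10.65 and 10.48 to 10.69, also lower than in PBS without overlap. No marker of these 3 lists was called in either comparison. Of single probe sets over the whole array, 5.14% lay wholly below placebo in IFNA and 8.47% wholly below PBS. The sums of all marker lists were looked at, and they are given as a description, without a test.

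Of 9 markers of macrophages and dendritic cells, 1 rose on day 15, 6 rose and 1 fell on day 18, and 3 rose in IFNA minus placebo. Over all probe sets 2.75% rose on day 15, 8.84% rose and 10.2% fell on day 18, and 0.837% rose in IFNA minus placebo, and the counts of all marker lists are to be read beside these shares. All lists, here and above, count 1 probe set per gene, unlike these shares. Of the 9155 named genes, 370 rose and 214 fell on day 15, and 1150 rose and 953 fell on day 18. In IFNA minus placebo 102 of them rose. The summed signal of the macrophage and dendritic cell markers ran from 11.35 to 11.6 in cyclic and from 12.33 to 12.87 in pregnant animals on day 18. Of 11 stromal markers, 1 rose on day 15, and 1 rose and 2 fell on day 18, among them COL3A1, a fibrillar collagen, at −0.46 (adjusted p = 0.000279). The stromal sum was 15.51 to 15.64 in cyclic and 15.32 to 15.53 in pregnant animals on day 18. Of 13 epithelial markers, 3 rose on day 15, and 4 rose and 1 fell on day 18. Of 7 neutrophil markers, 1 rose on day 15 and 3 on day 18, and of 14 markers of T and NK cells 1 fell on day 18. None of 3 mast cell, 3 ciliated cell, 4 B cell and 7 nerve markers passed on day 15, and 1 of each passed on day 18. The mast cell marker FCER1G (1.08) and the B cell marker IGHM (1.28) rose. The ciliated cell marker TEKT1 (−0.86, adjusted p = 0.0434) and the nerve marker S100B (−0.60, adjusted p = 0.0213) fell. S100B was at −0.69 on day 15 (adjusted p = 0.0548). The nerve sum on day 18 was 10.16 to 10.66 in cyclic and 9.62 to 10.13 in pregnant animals, and it overlapped on day 15. The B cell marker IGHM, an immunoglobulin heavy chain, was higher in IFNA than in placebo by 1.6 ± 0.288 (adjusted p = 0.0463). That call was lost after quantile normalisation, and IGHM was not called in IFNA minus PBS (1.32 ± 0.288, adjusted p = 0.105). The B cell sum was 10.17 to 10.35 in IFNA, 8.99 to 9.59 in placebo and 9.16 to 10 in PBS animals, and the macrophage sum 11.97 to 12.44, 10.66 to 11.38 and 11.14 to 11.48. None of 5 markers of erythrocytes and platelets passed on either day. Of 10 smooth muscle and pericyte markers, none passed on day 15 and RGS5, a pericyte gene, fell on day 18 (held in 3 of 8 fits with 1 array left out). No marker was at 0, which log2 array signals do not show. The part of any of these in the KCNMA1 differences was not tested.

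The genes whose pattern was most like KCNMA1 were led by EFNB3, a membrane-bound ligand of Eph receptors. Likeness was Pearson's r with the leading probe set over 33 arrays after the mean of each block was subtracted, among 3099 genes that varied enough (SD of at least 0.2). It is a description that contains the treatment and pregnancy differences themselves. The 10 highest were EFNB3 (r = 0.87), the fibroblast protease FAP (0.83), CRTAP, which takes part in collagen hydroxylation (0.81), ARHGEF4 (0.81), COL3A1 (0.80), the amine oxidase AOC3 (0.79), the peptide endothelin 3, EDN3 (0.78), KLK4 (0.77), DMGDH (0.76) and MXRA8 (0.76). In all, 5 genes exceeded 0.8 and 84 fell below −0.8.

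EFNB3 kept r = 0.91 over the 9 biopsies, 0.84 over the 24 slaughter arrays and 0.61 with group means subtracted. Its differences were −0.83 on day 15 (adjusted p = 0.0228) and −1.08 on day 18 (adjusted p = 0.000223). FAP differed by −0.91 and −0.89 on those days (adjusted p = 0.00593 and 0.000523) and EDN3 by −1 and −1.28 (adjusted p = 0.00378 and 1.52e-05). With group means subtracted, r fell to 0.22 for EDN3 and 0.34 for CRTAP. The least like genes were the RNA poly(A) polymerase TENT4A (−0.91) and 4 genes known as interferon-induced, NMI (−0.88), PARP12 (−0.87), STAT2 (−0.87) and TAP1 (−0.87). The 15 measured genes of a type I interferon list had a median r of −0.82, and 14 of them rose on day 15 and all 15 on day 18, where 2.75% and 8.84% of all probe sets rose.

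**Figure D5:**
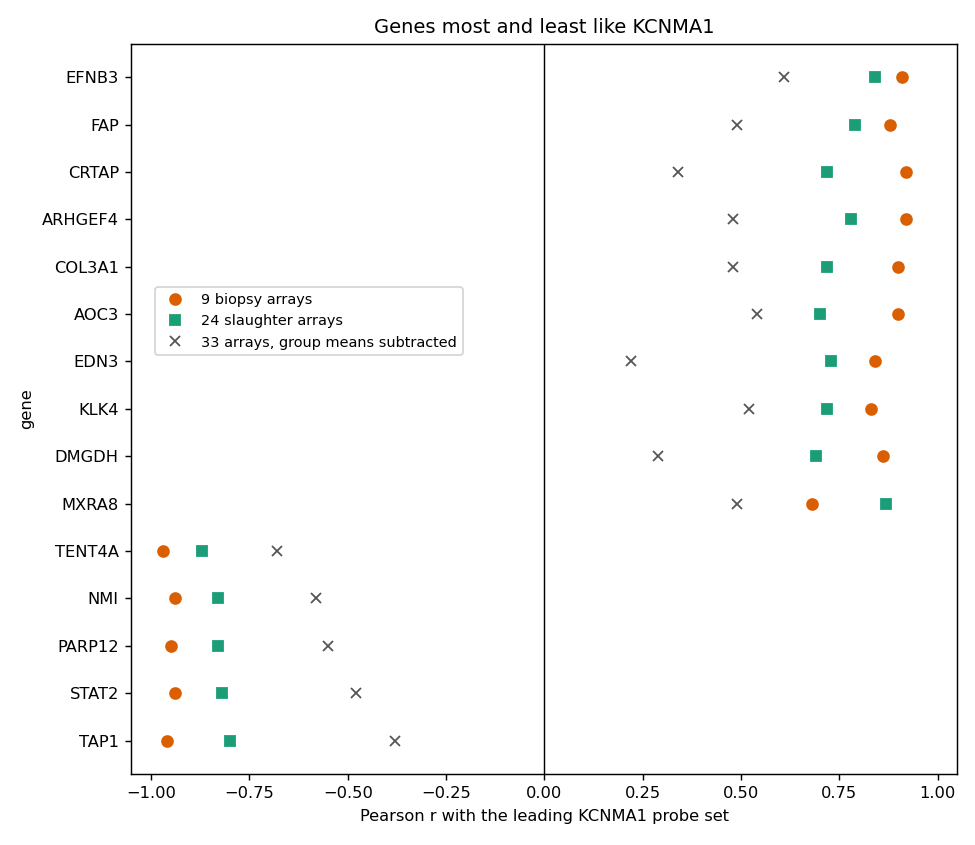
Pearson r of the 10 most and 5 least similar genes with the leading KCNMA1 probe set over the 9 biopsy arrays, the 24 slaughter arrays (block means subtracted) and all 33 arrays with group means subtracted. All 15 genes keep their sign in each set, and r is closer to 0 for all of them when the group means are removed, down to 0.22 for EDN3.

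Among the measured chromosomal neighbours of KCNMA1, only RPS24 passed in any comparison. In the RefSeq order of ARS-UCD2.0 the neighbours on one side, LRMDA and ZNF503, were not measured. On the other side DLG5, a scaffold protein, and POLR3A, a subunit of RNA polymerase III, passed in none of the 8 comparisons. DLG5 differed by −0.20 ± 0.118 on day 15 and −0.08 ± 0.102 on day 18, and POLR3A by −0.45 ± 0.288 and 0.04 ± 0.25. The next gene, RPS24, a ribosomal protein, fell by 0.17 on the log2 scale on day 18 (adjusted p = 0.00886) and passed in no other comparison. Over all probe sets 10.2% were called lower on day 18.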

How the data were processed

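Per the submitters' processing notes, the authors made the deposited log2 values with RMA in the package affy, without versions. The table holds 33 arrays and 24128 probe sets, with values from 1.89 to 14.2; 112 control probe sets were left out. Sorted values agreed within 4 blocks of arrays (largest SD 0.0511 to 0.0751) and less over all (0.333), from which separate normalisation was inferred. KCNMA1 and all gene lists were chosen with earlier results of these data known.

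Groups were compared in limma 3.58.1 under R 4.3.3, with 1 mean per group and moderated variances, over the 9 biopsy or the 24 slaughter arrays, two-sided, with Benjamini-Hochberg adjustment over 24016 probe sets and a threshold of 0.05. The fits were tested on simulated data. Other genes are read by their brightest probe set; of the probe sets, 13292 had 1 symbol, 86 several and 10638 none. List members past the threshold are named, up to 4 a list, with all accessory subunits and the 10 most and 5 least similar genes; marker genes were picked as examples after their values were seen. Alternatives were quantile normalisation, a filter on dim probe sets, separate fits, array weights, a replicate block, GAPDH as covariate, the mean over probe sets and leaving out each array. No probe or transcript sequence was used here.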

Additional observations from a re-analysis of the deposited data

Results flagged for a closer look

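Pregnant animal 5 of day 12 stood apart on the AY033473 set, at 8.63 against 9.31 to 9.54 in the other 4 animals of its group. It was the 1 value found in 24 searches, over the day 12 and day 18 groups and the probe sets of KCNMA1 and its accessory subunits, and chance gives about 1 in 20. On the other KCNMA1 probe sets that animal was not separated from its group in this way. It was still the lowest of its group on the leading probe set (9.59) and on the AY033474 sense set (7.71). Without it the day 12 difference on the AY033473 set stayed short of the threshold.

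The pregnancy effect on KCNMA1 differed between days 12 and 15 by −1.09 on the leading probe set and by −1.22 on the AY033473 set, both past the threshold of the interaction test in limma (adjusted p = 0.0416 and 0.0428). Both days were normalised in their own block and sampled at their own part of the horn, which cannot be told apart from the day.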

How the results depend on the processing

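The day 18 result, 3 KCNMA1 probe sets lower in pregnancy, held under every alternative and every left-out array (3 in each). On day 15 the 2 calls became 1 after quantile normalisation of all arrays (the AY033473 set, adjusted p = 0.0501) and 0 with a block for replicate numbers (0.055 and 0.0788); with single arrays left out there were 0 to 2. For the change from day 12 to day 15 the 2 calls became 0 after quantile normalisation and 0 with the replicate block (0.118 and 0.11), and 0 to 2 with an array left out. The cause was not tested. The labels do not state whether replicate numbers pair the animals. Of the same-numbered pairs, 2 of 3 on day 15, 2 of 5 on day 12 and 0 of 4 on day 18 correlated above 0.1. So few pairs cannot settle the question. The spread of the 9 group means of the leading probe set moved from 2 to 1.41 with quantile normalisation.

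From day 15 to day 18 the differences near 0 changed sign: −0.03 and −0.08 with quantile normalisation for the leading probe set and the AY033473 set, and −0.02 with array weights for the latter. With single arrays left out they ranged from −0.11 to 0.15 and from −0.13 to 0.17, and the AY033474 antisense set from −0.03 to 0.17 there, from −0.05 to 0.07 between days 12 and 15 and from −0.02 to 0.11 in IFNA minus placebo. Placebo minus PBS ranged from −0.01 to 0.35 on the leading probe set, from −0.07 to 0.72 on the AY033474 sense set and from −0.02 to 0.05 on the AY033474 antisense set. The leading probe set in IFNA minus placebo kept its direction throughout, but lay outside the threshold that chose the gene when only those arrays were fitted. In IFNA minus PBS it lay inside that threshold only with array weights or without PBS animal 3. These biopsy values share arrays with the choice of the gene and are given as a description, not as a test.

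Counts over the whole array moved by more than 1.5 times in these cases. IFNA minus placebo went from 208 to 124 with only those arrays, 323 with array weights, 338 with the GAPDH covariate and 136 to 257 with an array left out. IFNA minus PBS went from 207 to 433 with weights, 132 with the block and 110 to 232 with an array left out. Day 12 went from 1 to 2 (quantile) or 0 (dim filter, or only those arrays), and 0 to 3. Day 15 went from 1218 to 465 with only those arrays, and 601 to 1122. From day 12 to 15 the 477 became 282 to 476, and from day 15 to 18 the 50 became 2 with the dim filter, 23 with only those arrays, and 21 to 81. Of 79 other results that were followed, 15 were the likeness values r and the rest were calls of list members. Fits with an array left out are not in this count. Under the other alternatives 24 calls missed the threshold at least once and 0 changed sign. The medians of lists after quantile normalisation were added after the data had been seen. The dim filter dropped the AY033474 antisense set.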
